A study of Mus musculus with 9 samples.

Results

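The actin and tropomyosin genes of the mouse heart were followed from late foetal life through the first postnatal week. The 9 genes, 5 actins and 4 tropomyosins, were taken by symbol from the 48820 genes of the deposited table, and all 9 passed the filter on low values. Actin polymerises into the thin filaments on which myosin pulls in the sarcomere, and into the cytoskeletal filaments of all cells of the heart. Tropomyosin is a coiled coil that lies along the actin filament and, together with troponin, sets in striated muscle when myosin can bind. Both families hold genes with closely related products, and the striated muscle, smooth muscle and cytoplasmic forms are used to different extents as muscle matures.

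Hearts of untreated C57BL/6J mice of WT genotype, labelled as male, had been collected at 3 stages, with 3 biological replicates in each. The stages were embryonic day 18.5 (E18.5d), postnatal day 1 (P1d) and postnatal day 7 (P7d), and the study compared them to follow how the heart changes around birth. RNA-seq libraries were made from total RNA. The values are FPKM (fragments per kilobase of transcript, scaled to the mapped fragments of the library), a unit per length. Levels of different genes thus depend on the length taken for each, which is not given in the sources used here. The exons of all annotated transcripts together cover 6485 bases for *Tpm1* and 6085 for *Tpm3*. They cover 1618 bases for *Actc1*, 2203 for *Tpm4* and 2909 for *Tpm2*. The labelled tissue was checked with 9 cardiomyocyte markers, which summed to between 15905 and 22978 FPKM in the 9 hearts, with *Tnnt2* the most abundant at E18.5d and *Myh6* after birth.

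The label of sex did not hold for 4 of the 9 hearts. *Xist*, the RNA of the inactive X chromosome, was at 82.6 and 97.0 FPKM in E18.5d replicates 1 and 3 and at 58.0 and 70.0 FPKM in P7d replicates 2 and 3. In these hearts all 4 Y-linked genes that were looked at stood at 0. In the other 5 hearts *Xist* was at most 0.11 FPKM and the Y-linked genes at least 9.74 FPKM. By limma 0 of these 5 genes passed between any stages (at an unadjusted p under 0.05, 0 at P7d against E18.5d, 3 at P1d against E18.5d and 4 at P7d against P1d). The hearts that match their label are thus 1 of E18.5d, 3 of P1d and 1 of P7d, and the results below rest on all 9 hearts, with the main ones of the members also given for these 5.

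Depth, worked out from the spacing of low FPKM values and in M (mega) fragments, had a median of 30.75 for the E18.5d libraries (range 25.25 to 37), 28 for those of P1d (range 27.5 to 29.5) and 41 for those of P7d (range 36.25 to 44.25). At this depth the least abundant member, *Acta1*, rested on 1106 to 4078 fragments per heart and the most deeply covered, *Tpm1*, on 618390 to 1319432. Small structural RNAs held 53.3 to 62.3% of the summed FPKM of a heart, the most in P1d replicate 2, which was also the lowest heart for *Actc1*, *Actg1*, *Tpm3* and *Tpm4*. The coding sequences of the actins are near-identical in places, and how the authors assigned reads shared between them is not given in the sources used here, so each actin level is uncertain to that extent. The values are per gene, so that the muscle and non-muscle transcripts of 1 tropomyosin gene were not told apart.

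In every heart the levels, with the gene lengths behind the deposited values, followed nearly the same order. *Actc1* was highest, followed by *Tpm1*, *Actb*, *Acta2*, *Actg1*, *Tpm4*, *Tpm3*, *Tpm2* and *Acta1*. The only heart out of this order was P7d replicate 3, in which *Acta1* lay above *Tpm2*. Neighbours in the order whose hearts overlapped were *Tpm3* and *Tpm2* at E18.5d, *Tpm4* and *Tpm3* at P1d, and *Tpm2* and *Acta1* at P7d. All other neighbours were separated without overlap at each stage. The 5 actins summed, in order of stage, to 9726 ± 577, 8549 ± 877 and 9516 ± 619 FPKM (SD, n = 3 hearts), and the stages overlapped. The 4 tropomyosins summed to 4139 ± 187, 4120 ± 87.5 and 4965 ± 134 FPKM at the same stages, and there the P7d hearts lay above all others.

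*Actc1* (ENSMUSG00000068614.7, chr2:114047282-114053548, minus strand, GRCm38) encodes alpha-cardiac actin, the main actin of the cardiac thin filament. Its level was 7872, 7220 and 7107 FPKM in the E18.5d hearts, 6633, 5904 and 7431 FPKM in the P1d hearts and 6795, 7806 and 7369 FPKM in the P7d hearts. The 3 stages overlapped, and P1d replicate 2 was the lowest heart. *Acta1* (ENSMUSG00000031972.4, chr8:123891769-123894751, minus strand) encodes alpha-skeletal actin, which the heart also makes. It was at 45.9, 43.5 and 47.0 FPKM at E18.5d, at 38.5, 33.9 and 30.9 FPKM at P1d and at 38.6, 51.5 and 75.0 FPKM at P7d. All P1d hearts lay below all hearts of the other stages, and the P7d hearts were spread from just above the highest P1d heart, in replicate 1, to the highest level of the 9, in replicate 3.

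*Acta2* (ENSMUSG00000035783.8, chr19:34241090-34255590, minus strand) encodes the alpha-actin of smooth muscle, which immature cardiomyocytes are also known to make. Its level was 734, 744 and 624 FPKM at E18.5d, 692, 573 and 712 FPKM at P1d and 489, 562 and 603 FPKM at P7d. The P7d hearts were all below the E18.5d hearts and overlapped with the P1d hearts.

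The cytoplasmic actins are *Actb* (ENSMUSG00000029580.14, chr5:142903115-142906754, minus strand), which encodes beta-actin, and *Actg1* (ENSMUSG00000062825.15, chr11:120345690-120348542, minus strand), which encodes gamma-actin. *Actb* was at 1232, 1178 and 1008 FPKM at E18.5d, at 794, 850 and 903 FPKM at P1d and at 1120, 1208 and 1211 FPKM at P7d. *Actg1* was at 461, 449 and 414 FPKM at E18.5d, at 344, 335 and 373 FPKM at P1d and at 393, 419 and 410 FPKM at P7d. For both genes the 3 P1d hearts were the lowest of the 9, without overlap, and the E18.5d and P7d hearts overlapped.

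*Tpm1* (ENSMUSG00000032366.15, chr9:67022590-67049406, minus strand) encodes the main tropomyosin of the cardiac sarcomere. It was at 3957, 3853 and 3638 FPKM at E18.5d, at 3880, 3882 and 4013 FPKM at P1d and at 4684, 4602 and 4827 FPKM at P7d. The P7d hearts lay above the 6 others, which overlapped with each other. *Tpm2* (ENSMUSG00000028464.16, chr4:43514711-43523765, minus strand) encodes beta-tropomyosin, a muscle form that the foetal heart is known to use more than the adult heart. It was at 83.5, 92.0 and 65.4 FPKM at E18.5d, at 57.5, 54.8 and 49.7 FPKM at P1d and at 61.4, 59.2 and 68.6 FPKM at P7d. The P1d hearts were the lowest, and E18.5d replicate 3 fell within the P7d range.

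*Tpm3* (ENSMUSG00000027940.18, chr3:90072649-90100902, plus strand) encodes both slow muscle and cytoskeletal tropomyosins, and *Tpm4* (ENSMUSG00000031799.9, chr8:72134975-72153142, plus strand) a cytoskeletal one. *Tpm3* was at 112, 95.7 and 90.2 FPKM at E18.5d, at 67.8, 63.3 and 68.5 FPKM at P1d and at 74.2, 84.2 and 87.5 FPKM at P7d. *Tpm4* was at 145, 146 and 140 FPKM at E18.5d, at 69.2, 64.6 and 89.8 FPKM at P1d and at 114, 103 and 128 FPKM at P7d. For both genes the stages did not overlap, with E18.5d highest, P1d lowest and P7d between them. Taken by their means, 7 of the 9 members were lowest at P1d, as were 29.5% of all genes tested, and the exceptions were *Tpm1*, lowest at E18.5d, and *Acta2*, lowest at P7d.

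**Figure D1:**
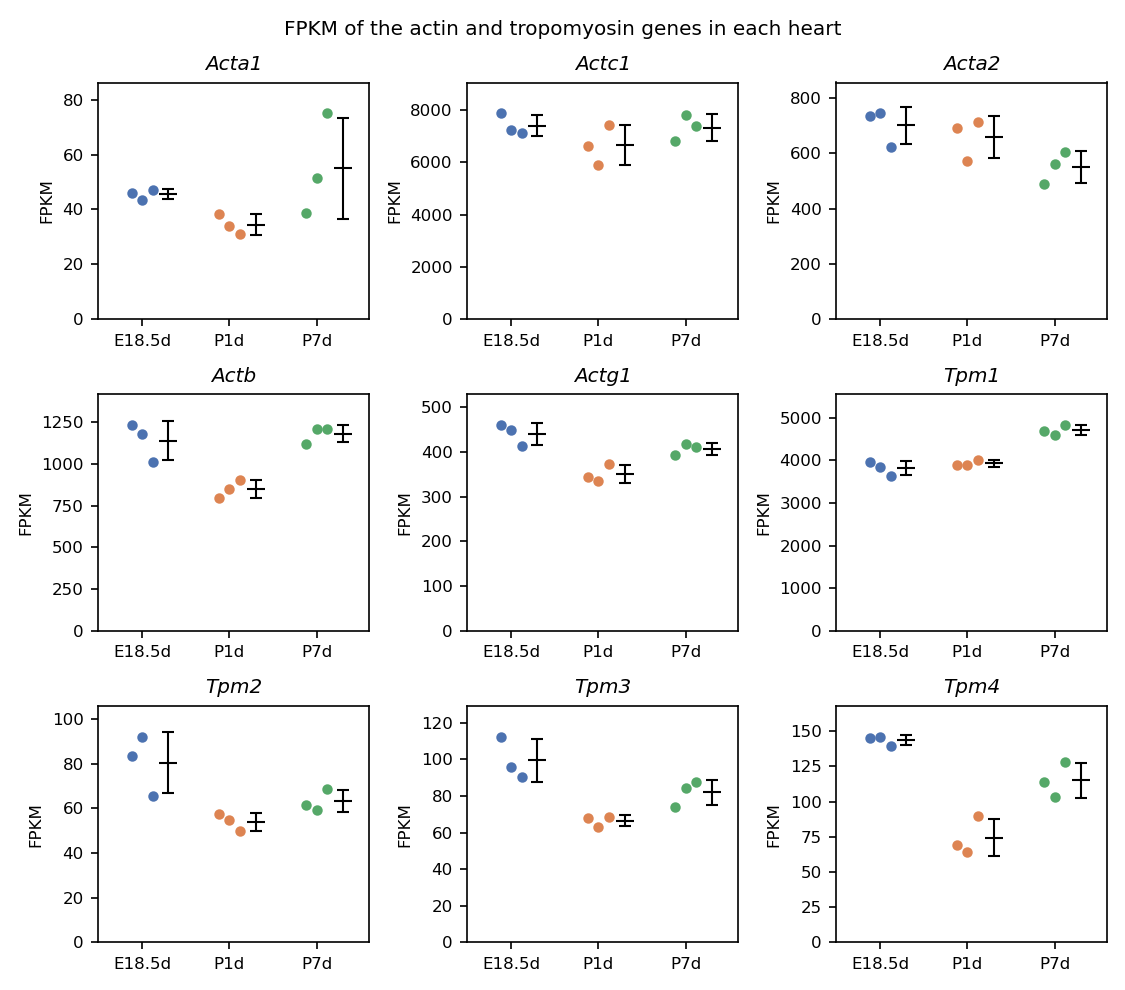
FPKM of the 9 genes (vertical axes, from 0) at each stage (horizontal axes), with 1 point per heart and the mean ± SD of 3 hearts as a black bar beside the points. The P1d hearts are the lowest for Actb, Actg1, Tpm3 and Tpm4, and the P7d hearts the highest for Tpm1.

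The step across birth, P1d against E18.5d, was a decrease of the cytoplasmic actins and of the 3 minor tropomyosins. *Tpm4* showed the largest fall, from 144 ± 3.34 to 74.5 ± 13.4 FPKM (SD, n = 3 hearts), a change of -48.1%. *Tpm3* fell from 99.4 ± 11.6 to 66.5 ± 2.84 FPKM and *Tpm2* from 80.3 ± 13.6 to 54.0 ± 3.97 FPKM. *Actb* fell from 1139 ± 117 to 849 ± 54.2 FPKM and *Actg1* from 441 ± 24.4 to 351 ± 20.1 FPKM, while *Tpm1* was at 3816 ± 163 and 3925 ± 76.2 FPKM. In these 5 genes that fell and in *Acta1*, all 3 P1d hearts were below all 3 E18.5d hearts, as in 32.3% of all genes tested.

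These 5 members were the ones that passed the test, limma on log2(FPKM + 1) over the 13618 genes that reached 1 FPKM on average, p adjusted by Benjamini-Hochberg and called under 0.05. Of all genes tested, 27.6% were lower and 18.4% higher at P1d than at E18.5d. The log2 change was -0.95 for *Tpm4* (standard error 0.12, adjusted p = 0.000207), -0.57 for *Tpm3* (standard error 0.09, adjusted p = 0.000901) and -0.55 for *Tpm2* (standard error 0.12, adjusted p = 0.00433). It was -0.42 for *Actb* (standard error 0.09, adjusted p = 0.00348) and -0.33 for *Actg1* (standard error 0.06, adjusted p = 0.00269). By limma 0 members were higher, and 0 at an unadjusted p under 0.05. The median log2 change of the 9 members was -0.40, against -0.06 for all genes tested.

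The 4 members that missed the threshold were *Acta1* (log2 change -0.40, adjusted p = 0.120), *Actc1* (-0.16, adjusted p = 0.238), *Acta2* (-0.09, adjusted p = 0.535) and *Tpm1* (0.04, adjusted p = 0.640). *Acta1* passed when P7d replicate 1 or 3 was left out of the common fit (adjusted p = 0.0410 and 0.0226) and when only the 2 stages compared were fitted (adjusted p = 0.0108). The sign of *Tpm1* turned when the columns were rescaled to equal sums (-0.13) or quantile-normalized (-0.39, adjusted p = 0.0327), and that of *Acta2* without P1d replicate 2 (0.0069). *Actc1* passed as lower with quantile normalization (-0.47, adjusted p = 0.0391). With a covariate for *Xist* above 1 FPKM the same 5 members passed (adjusted p = 0.00229 to 0.0257). In bulk RNA, fewer cells of a type and less RNA per cell cannot be told apart, for these and all later changes. In the 5 hearts that match their label, the changes were -0.98 for *Tpm4*, -0.76 for *Tpm2*, -0.52 for *Tpm3*, -0.47 for *Actb* and -0.36 for *Actg1*, and only that of *Tpm2* passed (adjusted p = 0.0415, against 0.0587, 0.0577, 0.101 and 0.133 for *Tpm4*, *Tpm3*, *Actb* and *Actg1*). That fit called 239 of all 13618 genes higher and 584 lower, and has 1 heart at E18.5d, which is assumed to vary like those of the other stages.

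Between P1d and P7d most of the same genes were higher again, and *Tpm1* joined them. This step shares its P1d hearts with the step across birth, so a level particular to those hearts enters both. *Tpm4* rose from 74.5 ± 13.4 to 115 ± 12.3 FPKM (SD, n = 3 hearts), *Actb* from 849 ± 54.2 to 1179 ± 51.8 FPKM and *Tpm1* from 3925 ± 76.2 to 4705 ± 114 FPKM. *Actg1* rose from 351 ± 20.1 to 407 ± 13.0 FPKM and *Tpm3* from 66.5 ± 2.84 to 82.0 ± 6.93 FPKM. *Acta1* rose from 34.5 ± 3.80 to 55.04 ± 18.5 FPKM, 1.60 times as high, and at P7d had the widest spread of all members relative to the mean. All P7d hearts were above all P1d hearts for these 6 genes and for *Tpm2*, as for 19.3% of all genes tested.

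In the limma test 6 members were higher at P7d than at P1d, where 15.5% of all genes tested were higher and 28.6% lower. The log2 change was 0.63 for *Tpm4* (standard error 0.12, adjusted p = 0.00238), 0.61 for *Acta1* (standard error 0.19, adjusted p = 0.0277) and 0.47 for *Actb* (standard error 0.09, adjusted p = 0.00205). It was 0.29 for *Tpm3* (standard error 0.09, adjusted p = 0.0262), 0.26 for *Tpm1* (standard error 0.07, adjusted p = 0.0114) and 0.22 for *Actg1* (standard error 0.06, adjusted p = 0.0223). By limma 0 members were lower, and 1 at an unadjusted p under 0.05, *Acta2* (log2 change -0.26, adjusted p = 0.0894), which passed without P1d replicate 2 (-0.35, adjusted p = 0.0278). *Tpm2* (0.22, adjusted p = 0.160) and *Actc1* (0.14, adjusted p = 0.292) missed the threshold, which *Actc1* passed with nuclear protein-coding sums (0.30, adjusted p = 0.0494) and *Tpm2* with these, quantile normalization or median of ratios (0.35 to 0.37). The median of the 9 members was 0.26, against -0.09 for all genes tested.

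Of these calls, those of *Acta1*, *Actg1* and *Tpm3* each depended on single hearts. *Acta1* missed the threshold when replicate 2 or 3 of P1d or of P7d was left out (adjusted p = 0.0534 to 0.0787), with a change of 0.37 without P7d replicate 3, and also when only the 2 stages compared were fitted (adjusted p = 0.0625). *Actg1* and *Tpm3* missed it when any of P1d replicates 1 and 2 and P7d replicates 2 and 3 was left out (adjusted p = 0.0570 to 0.0729 for *Actg1* and 0.0509 to 0.0920 for *Tpm3*). With the *Xist* covariate, *Actb* (0.46, adjusted p = 0.0182) and *Tpm4* (0.64, adjusted p = 0.0164) passed, and *Tpm1* (0.27, adjusted p = 0.0625), *Acta1* (0.36), *Actg1* (0.21) and *Tpm3* (0.20) did not. In the hearts that match their label, with 1 at P7d, the changes were 0.62 for *Tpm4*, 0.40 for *Actb*, 0.26 for *Tpm1*, 0.17 for *Acta1*, 0.17 for *Actg1* and 0.16 for *Tpm3*, and none passed, in a fit that called 75 of all genes higher and 104 lower. Without the filter on low values *Acta1*, *Tpm1* and *Tpm3* missed the threshold (adjusted p = 0.0709, 0.113 and 0.0537).

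Over the whole interval, P7d against E18.5d, *Tpm1* rose by 23.3%, from 3816 ± 163 to 4705 ± 114 FPKM (SD, n = 3 hearts). *Acta2* was at 701 ± 66.8 and 551 ± 58.1 FPKM, *Tpm4* at 144 ± 3.34 and 115 ± 12.3 FPKM, *Tpm3* at 99.4 ± 11.6 and 82.0 ± 6.93 FPKM and *Tpm2* at 80.3 ± 13.6 and 63.0 ± 4.92 FPKM, all lower at P7d on the deposited scale. *Actc1* was at 7400 ± 413 and 7323 ± 507 FPKM, and *Actb* at 1139 ± 117 and 1179 ± 51.8 FPKM. This comparison shares its E18.5d hearts with the first and its P7d hearts with the second.

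By limma 1 member was higher and 4 were lower, where 12.5% of all genes tested were higher and 36.9% lower. The log2 change was 0.30 for *Tpm1* (standard error 0.07, adjusted p = 0.00471), -0.35 for *Acta2* (standard error 0.11, adjusted p = 0.0275), -0.33 for *Tpm2* (standard error 0.12, adjusted p = 0.0407), -0.32 for *Tpm4* (standard error 0.12, adjusted p = 0.0457) and -0.27 for *Tpm3* (standard error 0.09, adjusted p = 0.0316). It was 0.22 for *Acta1* (adjusted p = 0.372), -0.02 for *Actc1* (adjusted p = 0.912), 0.05 for *Actb* (adjusted p = 0.631) and -0.11 for *Actg1* (adjusted p = 0.172). The 95% interval of *Actc1* ran from -0.25 to 0.22. The median of the 9 members was -0.11, against -0.17 for all genes tested.

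That shift depends on the scale of the columns. With median-of-ratios scaling the median of all genes was 0.01 in place of -0.17, and 3159 genes were higher and 2545 lower at P7d, in place of 1706 and 5025. On that scale 0 members were lower, and the changes were -0.13 for *Acta2*, -0.12 for *Tpm2*, -0.11 for *Tpm4* and -0.06 for *Tpm3*. *Tpm1* (0.51, adjusted p = 0.000405) and *Actb* (0.27, adjusted p = 0.0410) were then higher, and the signs of *Actc1* (0.20) and *Actg1* (0.10) turned. For P1d against E18.5d the same scaling gave 3215 genes higher and 3031 lower in place of 2505 and 3755, and for P7d against P1d 3194 and 2471 in place of 2112 and 3901. There all calls of members made on the deposited scale passed as well, and *Tpm2* was added at P7d (0.35, adjusted p = 0.0293).

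Single hearts also ended the 4 decreases at P7d. *Acta2*, *Tpm2* and *Tpm3* missed the threshold when any of E18.5d replicates 1 and 2 and P7d replicates 1 and 2 was left out (adjusted p = 0.0584 to 0.0997 for *Acta2*, 0.1001 to 0.146 for *Tpm2* and 0.0548 to 0.113 for *Tpm3*). *Tpm4* missed it when any E18.5d heart, P1d replicate 1, or replicate 1 or 2 of P7d was left out (adjusted p = 0.0534 to 0.156). *Acta1* was at 0.44 and passed without P7d replicate 1 (adjusted p = 0.0421), and was at -0.03 without P7d replicate 3. The signs of *Actc1* and *Actb* turned in the same way, for *Actc1* without E18.5d replicate 1 or P7d replicate 1 (0.03 and 0.04) and for *Actb* without E18.5d replicate 3 (-0.03). The call of *Tpm1* held without any single heart. It was lost with equal column sums (0.26, adjusted p = 0.0566), quantile normalization (0.0078, adjusted p = 0.967) or no filter (adjusted p = 0.0630). *Actb* was higher in place of *Tpm1* with quantile normalization (0.36, adjusted p = 0.00445). With the *Xist* covariate *Tpm4* missed the threshold (adjusted p = 0.0623), as did *Tpm2* with only the 2 stages fitted (adjusted p = 0.0531). In the 2 hearts of these stages that match their label the change was 0.28 for *Tpm1*, -0.61 for *Acta2*, -0.58 for *Tpm2*, -0.36 for *Tpm3*, -0.35 for *Tpm4* and -0.17 for *Acta1*, and no member passed, in a fit that called 93 of all genes higher and 101 lower.

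**Figure D2:**
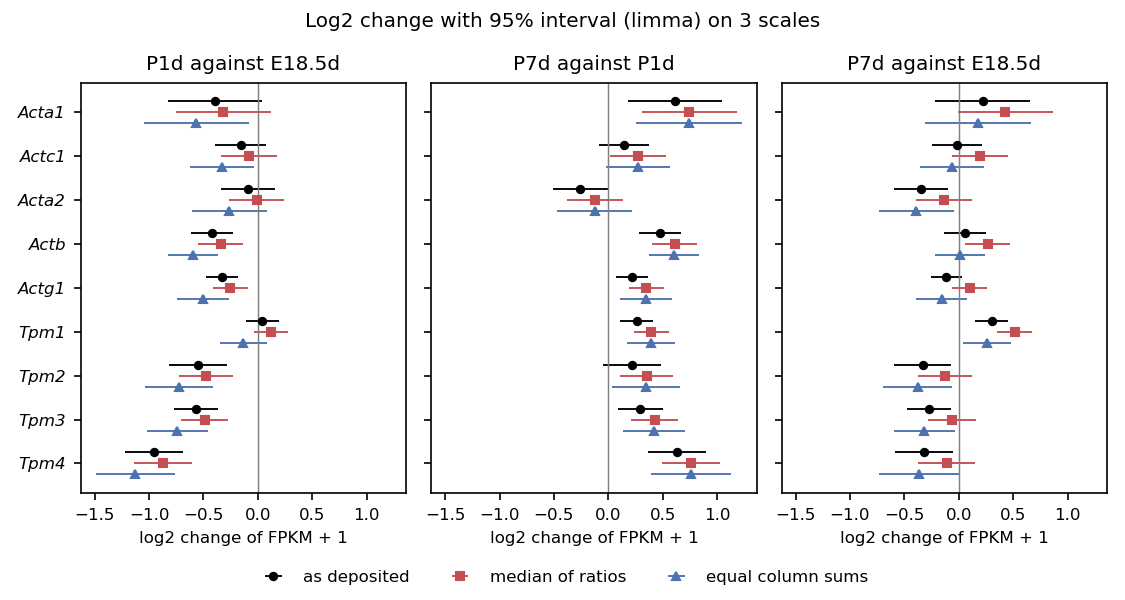
Log2 change of FPKM + 1 of each gene (horizontal axes) with its 95% interval from limma, for the 3 comparisons, on the deposited scale (black), after median-of-ratios scaling (red) and with equal column sums (blue). Tpm4 lies below 0 at P1d against E18.5d and above 0 at P7d against P1d on all 3 scales, while the P7d decreases of Acta2, Tpm2, Tpm3 and Tpm4 against E18.5d reach 0 on the median-of-ratios scale.

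Isoform shares within a heart do not depend on the scale of its column, but do depend on the length taken for each gene. They were computed for 14 quantities in 3 comparisons, 42 differences in all, and tested with exact two-sided permutation tests over hearts, which cannot give a p below 0.1 with 3 hearts against 3. Among the 5 actins *Actc1* made up 76.1 ± 1.16%, 77.8 ± 0.98% and 76.9 ± 0.75% of the summed FPKM in order of stage (SD, n = 3 hearts). The hearts overlapped in all 3 comparisons (exact permutation p = 0.2 to 0.4). *Acta1* took 0.469 ± 0.037%, 0.407 ± 0.069% and 0.575 ± 0.178% of the actins at these stages, also with overlap. Set against *Actc1* alone, the other striated muscle actin, it took 0.580, 0.599 and 0.657% at E18.5d, 0.577, 0.572 and 0.415% at P1d and 0.565, 0.655 and 1.01% at P7d. The P1d hearts all lay below the E18.5d hearts, replicate 3 well below and the others only just. The difference of P1d from E18.5d was -0.091 points, and -0.038 points without P1d replicate 3. P7d replicate 3 stood above all other hearts.

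The share of *Acta2* was 7.09, 7.73 and 6.78% at E18.5d, 8.14, 7.45 and 7.53% at P1d and 5.53, 5.59 and 6.24% at P7d. All P7d hearts were below all hearts of the other stages (difference -1.41 points from E18.5d and -1.92 points from P1d, exact permutation p = 0.1 for each, the smallest possible). In the hearts that match their label these differences were -2.20 and -2.18 points.

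The cytoplasmic actins together took 16.4, 16.9 and 15.5% of the actins at E18.5d, 13.4, 15.4 and 13.5% at P1d and 17.1, 16.2 and 16.8% at P7d. The P1d hearts were below the others, with P1d replicate 2 close to the lowest E18.5d heart (difference -2.14 points from E18.5d and 2.599 points from P1d to P7d, exact permutation p = 0.1 for each). Within this pair, *Actb* took 72.8, 72.4 and 70.9% at E18.5d, 69.8, 71.7 and 70.7% at P1d and 74.0, 74.3 and 74.7% at P7d. The 3 P7d hearts were above the 6 others (differences 2.29 points from E18.5d and 3.56 points from P1d, exact permutation p = 0.1 for each). In the hearts that match their label, the differences of the share of both cytoplasmic actins together were -2.79 points from E18.5d to P1d and 3.03 points from P1d to P7d.

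Among the tropomyosins *Tpm1* took 92.1, 92.0 and 92.5% of the summed FPKM at E18.5d, 95.2, 95.5 and 95.1% at P1d and 94.9, 94.9 and 94.4% at P7d. The E18.5d hearts stood apart from the 6 postnatal hearts (difference 3.07 points at P1d and 2.57 points at P7d, exact permutation p = 0.1 for each), and the P7d hearts were in turn slightly below the P1d hearts (difference -0.50 points, exact permutation p = 0.1). *Tpm2*, *Tpm3* and *Tpm4* together took 7.81 ± 0.25%, 4.73 ± 0.22% and 5.23 ± 0.28% in order of stage. In the hearts that match their label the *Tpm1* differences were 3.24 and 2.91 points from E18.5d and -0.33 points from P1d to P7d.

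*Tpm4* took 3.37, 3.49 and 3.56% at E18.5d, 1.70, 1.59 and 2.13% at P1d and 2.31, 2.13 and 2.50% at P7d, with P7d above P1d by 0.51 points (exact permutation p = 0.1). *Tpm3* took 2.40 ± 0.19%, 1.61 ± 0.05% and 1.65 ± 0.13% and *Tpm2* 1.93 ± 0.27%, 1.31 ± 0.12% and 1.27 ± 0.06% at the 3 stages. For these 2 genes both postnatal stages were below E18.5d without overlap, and P1d and P7d overlapped (exact permutation p = 0.7 for *Tpm3* and 0.6 for *Tpm2*). Whether the difference between P1d and P7d was itself unlike among the 3 genes was not tested.

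**Figure D3:**
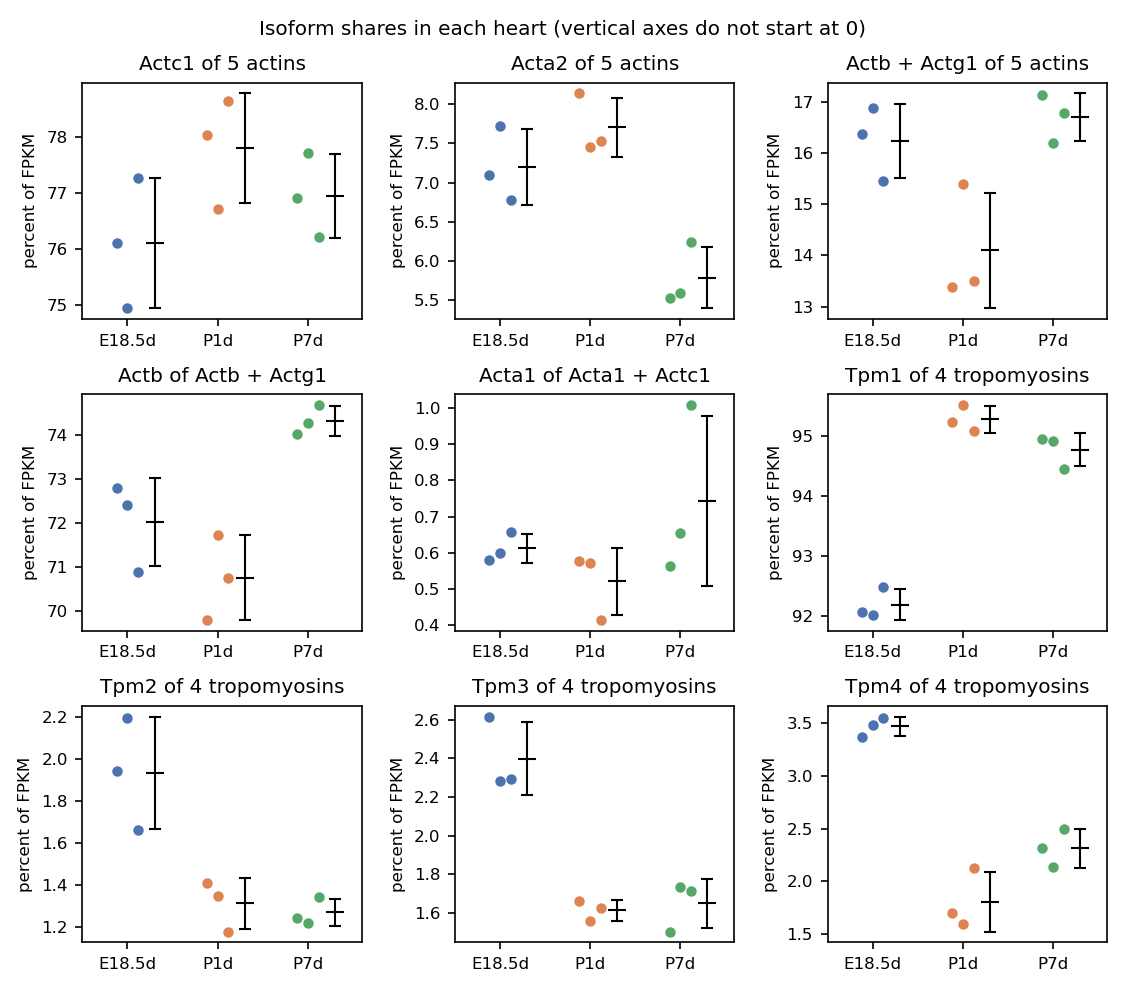
Isoform shares in percent of the summed FPKM of the genes named above each panel (vertical axes, which do not start at 0) at each stage, with 1 point per heart and the mean ± SD of 3 hearts as a black bar. The Tpm1 share is near 92% in the E18.5d hearts and between 94.4 and 95.5% in the postnatal hearts, and the Acta2 share is lowest in the P7d hearts.

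Cell type markers moved between the stages as well. In the hearts that match their label, of all marker and pathway lists only 1 smooth muscle marker, lower, and 1 pericyte and 1 brown fat marker, higher, passed for P7d against E18.5d. Of the 8 smooth muscle markers, which bear on *Acta2*, 4 were lower and 1 higher by limma at P7d than at E18.5d, where 36.9% of all genes tested were lower, and with median of ratios or quantile normalization 3 were lower and 3 higher. *Cnn1*, calponin, fell from 31.8 to 6.01 FPKM (log2 change -2.22) and *Tagln* from 74.2 to 41.1 FPKM (-0.81), *Smtn* rose from 30.9 to 55.5 FPKM (0.83), and *Myh11*, the smooth muscle myosin, was at 15.7 and 13.7 FPKM (adjusted p = 0.636). The whole list summed to 211, 225 and 153 FPKM in the E18.5d hearts, 170, 185 and 137 FPKM at P1d and 154, 151 and 154 FPKM at P7d, with *Tagln* its most abundant gene at E18.5d and none of its genes at 0. The other 2 lower genes were *Actg2* and *Lmod1*, and *Tagln* missed the threshold without E18.5d replicate 2 (adjusted p = 0.0514). The marker genes named here and below were picked after their values were seen. *Acta2* stood above the sum of the whole list in every heart, and the part of smooth muscle cells in its change was not tested.

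Beside *Tpm1*, the 5 endothelial markers were all higher at P7d than at E18.5d, where 12.5% of all genes tested were higher and 36.9% lower. They summed to 350, 426 and 490 FPKM at the 3 stages, with *Pecam1* the most abundant over all hearts and *Cdh5* at P7d. Of 9 cardiomyocyte markers 7 were higher and 1, *Tnnt2*, lower at P7d, and their sum was 15983, 21899 and 22893 FPKM in order of stage. All 4 atrial markers were lower at P7d, with a sum of 7092, 6681 and 3471 FPKM and *Myl7* the most abundant but for *Nppa* at P1d, while by limma 0 of the 2 ventricular markers passed in any comparison, and at an unadjusted p under 0.05 only 1, from P1d to P7d, with 1 higher by P7d from E18.5d under median of ratios and 1 lower under quantile normalization (sum 13780, 14941 and 15065 FPKM). Beside the cytoplasmic actins and *Tpm4*, which all cells of the heart make, the 7 fibroblast markers summed to 2050, 1880 and 2713 FPKM. Their sum in the P1d hearts was 1679, 2225 and 1735 FPKM in order of replicate. The 6 pericyte markers summed to 169, 208 and 313 FPKM, with *Abcc9* the most abundant (68.0, 89.0 and 113 FPKM). The 4 leukocyte markers summed to 28.1, 44.8 and 40.4 FPKM. Of these lists 2 fibroblast (4 with median of ratios), 4 pericyte and 3 leukocyte genes had risen by P7d from E18.5d, and 0 were lower by limma (0 at an unadjusted p under 0.05). Across birth, where 27.6% of all genes tested fell and 18.4% rose, 3 fibroblast, 1 pericyte and 1 endothelial markers fell and 3 pericyte, 3 leukocyte, 3 endothelial and 6 cardiomyocyte markers rose. From P1d to P7d 15.5% of all genes rose and 28.6% fell. In this step 4 fibroblast, 6 pericyte, 1 leukocyte, 2 endothelial and 4 cardiomyocyte markers rose, and of these lists only 1 cardiomyocyte marker fell. Of the 4 atrial markers 2 rose and 2 fell across birth, and all 4 fell from P1d to P7d. Of the 8 smooth muscle markers 3 fell across birth, and from P1d to P7d 3 fell and 1 rose. The part of any of these cell types in the changes of the members was not tested.

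Beside *Acta1*, 12 skeletal muscle markers were low. Their sum was 14.2, 9.94 and 5.20 FPKM at the 3 stages, with *Tnni2* the most abundant, and the myogenic factors *Myod1*, *Myf5*, *Myf6* and *Myog* had stage means of at most 0.107 FPKM. The 3 of them that could be tested were *Pvalb* (-1.41), *Tnnt3* (-1.12) and *Tnni2* (-0.79). All fell from E18.5d to P7d, where 36.9% of all genes tested were lower. The part of skeletal muscle cells in the level of *Acta1* was not tested. The 4 erythroid markers summed to 5206 to 15398 FPKM over the hearts, with *Hbb-bs* the most abundant. By limma 0 of them passed in any comparison (at an unadjusted p under 0.05, 0 at P7d against E18.5d, 1 higher at P1d against E18.5d and 3 lower at P7d against P1d). Of 4 brown fat markers, with *Ppargc1b* the most abundant at E18.5d and *Cidea* after birth, 3 could be tested (sum of the list 21.9, 39.4 and 53.5 FPKM). All 3 had risen by P7d from E18.5d, where 12.5% of all genes tested were higher, and 2 with equal column sums. *Ucp1*, at 0 FPKM in the E18.5d hearts and 6.62 FPKM on average at P7d, passed the filter only through P7d. *Ppargc1b* missed the threshold when any of E18.5d replicates 1 and 3 and P7d replicates 2 and 3 was left out (adjusted p = 0.0538 to 0.0863).

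Proteins that cap and set the length of thin filaments were followed with 15 genes. By limma 4 had risen and 5 fallen by P7d from E18.5d, where 12.5% and 36.9% of all genes tested did so, with a median log2 change of -0.12 against -0.17. *Tmod4*, a tropomodulin that caps the pointed end, rose from 0.523 to 2.18 FPKM (log2 change 1.07) and passed the filter only through P7d. *Cap2*, a cyclase-associated protein that binds actin monomers, fell from 94.1 to 54.98 FPKM (-0.76). *Capza1*, a subunit of the barbed-end capping protein, fell from 66.7 to 42.2 FPKM (-0.65). The others called were *Lmod2* (0.61), *Nrap* (0.35) and *Lmod3* (0.27), higher, and *Capza2* (-0.64), *Lmod1* (-0.61) and *Cap1* (-0.27), lower, named after their values were seen. Single hearts ended the calls of *Lmod2* (any of E18.5d replicates 1 and 2 and P7d replicates 2 and 3 left out, adjusted p = 0.0549 to 0.0734), *Lmod3* (any of replicates 1 and 2 of E18.5d and of P7d left out, adjusted p = 0.0708 to 0.0920) and *Lmod1* (the same hearts as for *Lmod2*, adjusted p = 0.0640 to 0.1001). The leiomodins *Lmod2* and *Lmod3*, which elongate or nucleate thin filaments, went opposite ways across birth. *Lmod2* was at 36.0, 94.6 and 54.6 FPKM at the 3 stages and *Lmod3* at 18.1, 10.1 and 22.0 FPKM, with log2 changes at P1d of 1.40 and -0.79, both called. With median-of-ratios scaling 5 genes of the list were higher and 3 lower at P7d.

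Of 24 genes of actin assembly and turnover, 15 had fallen and 1 had risen by P7d from E18.5d, where 36.9% and 12.5% of all genes tested did so, with a median log2 change of -0.24 against -0.17. *Diaph3*, a formin, fell from 9.58 to 5.56 FPKM (log2 change -0.69), *Dstn*, destrin, from 398 to 248 FPKM (-0.68) and *Cfl1*, cofilin, from 202 to 132 FPKM (-0.61). The gene that rose was *Fhod3*, a formin of the sarcomere, from 65.8 to 98.0 FPKM (0.57), named after its value was seen. The count depends on scale, with 4 lower and 3 higher under median of ratios, where the 3 named decreases passed as well. Across birth 9 were lower and 2 higher (all genes 27.6% and 18.4%), and from P1d to P7d 8 were lower and 2 higher (all genes 28.6% and 15.5%).

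Of the enzymes that modify actin, 5 of 6 were found. From E18.5d to P7d 3 fell and 0 rose, where 36.9% and 12.5% of all genes tested did so. By limma 0 were higher at an unadjusted p under 0.05 as well. Across birth 2 rose and 1 fell (all genes 18.4% and 27.6%). From P1d to P7d 4 fell and 0 rose by limma, also at an unadjusted p under 0.05 (all genes 28.6% and 15.5%). *Mical2*, which oxidises actin, fell from 147 to 82.9 FPKM (-0.81), *Mical3* from 49.8 to 38.5 FPKM (-0.37), after a rise to 72.4 FPKM at P1d (0.52, called), and *Setd3*, the actin histidine methyltransferase, from 52.7 to 44.9 FPKM (-0.23), the last 2 no longer called with median-of-ratios scaling (-0.16 and -0.02), on which 1 other gene of the list was higher. *Setd3* also missed the threshold without E18.5d replicate 2 or P7d replicate 2 (adjusted p = 0.0569 and 0.0517). Of 9 other actin and tropomyosin loci 4 passed the filter, and 2 were lower at P7d, *Actg2* (-0.97), the gamma-actin of smooth muscle, from 17.5 to 8.02 FPKM, and *Actl6a* (-0.58), an actin-related protein of chromatin complexes, from 24.9 to 16.3 FPKM, while with median of ratios 2 others were higher. *Actg2* missed the threshold without E18.5d replicate 2 (-0.77, adjusted p = 0.0515). The 5 loci that did not pass, *Actbl2*, *Actl6b*, *Actg-ps1*, *Tpm3-rs2* and *Tpm3-rs7*, had stage means of at most 0.163 FPKM.

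Serum response factor (SRF) binds the CArG box, a motif long known in actin gene promoters, together with cofactors of the myocardin family. *Srf* was at 24.0, 23.2 and 21.8 FPKM at the 3 stages, *Myocd* at 42.3, 40.7 and 37.7, *Mrtfa* at 5.21, 4.75 and 4.83 and *Mrtfb* at 9.43, 10.04 and 10.2 FPKM. By limma 0 of the 4 passed in any comparison, and 0 at an unadjusted p under 0.05. With median-of-ratios scaling *Mrtfb* rose from E18.5d to P7d (0.30, adjusted p = 0.00826) and the signs of *Srf* (0.07), *Myocd* (0.05) and *Mrtfa* (0.08) turned.

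The promoters of the members were searched for this box in the RefSeq windows of GRCm38.p6, 300 bases from 250 before to 50 after the start, which 8 of the 9 members have. *Actb* has no window there. The box, a motif of 10 letters searched on both strands, stood in the windows of 3 members, *Actc1*, *Acta1* and *Actg1*, and in 535 of all 32851 windows (1.63%). The 30 bases around each are shown, since they belong to the highest and the lowest of the 9 genes and to 1 cytoplasmic actin, with the box in capitals. They lie at chr2:114052903-114052932 for *Actc1*, chr8:123894829-123894858 for *Acta1* and chr11:120348566-120348595 for *Actg1*, all on the minus strand, with the box beginning 47, 73 and 90 bases before the RefSeq start.
Actc1: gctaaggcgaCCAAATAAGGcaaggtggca
Acta1: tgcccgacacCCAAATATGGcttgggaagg
Actg1: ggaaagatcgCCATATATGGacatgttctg
*Actc1* was at 5904 FPKM or more in each heart and *Acta1* at 75.0 FPKM or less, and both windows hold the box. No match was found in the windows of *Acta2*, *Tpm1*, *Tpm2*, *Tpm3* and *Tpm4*, which says only that these letters are not in those windows.

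The genes most like each member over the 9 hearts were found by Pearson's r of log2(FPKM + 1) among 6517 genes that averaged 10 FPKM or more, as a description of these hearts. For *Tpm1* they were *Col4a2* (r = 0.990) and *Cdh5* (0.986), a basement membrane collagen and the cadherin of endothelial junctions, with *Col4a2* at 202, 208 and 320 FPKM at the 3 stages. *Hpf1* (0.985) was among those of *Tpm4*. They were for *Tpm3* *Pgam2* (0.982) and *Oxnad1* (0.973), and for *Tpm2* *Ubtd2* (0.959) and *Cit* (0.944). For *Actb* they were *Pcdhgc3* (0.988) and *Tnfaip1* (0.981), and for *Actg1* *Pola2* (0.985) and *Nacc1* (0.973). The values were lower for *Acta2*, with *Pin4* (0.943) and *Pdcl3* (0.922), *Actc1*, with *Sccpdh* (0.931) and *Aars* (0.914), and *Acta1*, with *Dnajb5* (0.908) and *Tssc4* (0.905). Values this high are found by choosing among many genes over few hearts.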

How the data were processed

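The authors deposited FPKM values with 2 decimals for 48820 genes in 9 hearts, 3 per stage. The submitters' processing notes name STAR, GRCm38 and mm10. The counting tool and annotation are not given in the sources used here. Identifiers were matched without version to GENCODE M21 (48058 of 48820, and all 9 members, 7 in the same version). The members and gene lists were chosen with earlier results of these data known.

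The 13618 genes averaging 1 FPKM or more were fitted on log2(FPKM + 1) with limma 3.58.1 in R 4.3.3 (eBayes with trend), all hearts in 1 fit without covariates, Benjamini-Hochberg adjustment and a threshold of 0.05. This scale understates changes of low genes. The fit was tested on simulated data. Shares were computed per heart in Python 3.11.15. Depth was taken as the value at which most low FPKM gave whole numbers of fragments (72.7 to 77.4% within a tolerance of 0.1), against medians of 16.3 to 17.4% over other depths. The genes named were all members, the 3 largest called changes of each pathway list at P7d against E18.5d, the whole of the SRF list, and genes from the 2 most like each member by Pearson's r. Others are said in the text to be named after their values were seen. Nothing was dropped. Alternatives were a pseudocount of 0.1, other filters and scalings, no trend, a replicate block, only the stages compared, an *Xist* covariate, only hearts matching their label and each heart left out. Rescaling to nuclear protein-coding genes was chosen after seeing the data.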

Additional observations from a re-analysis of the deposited data

Results flagged for a closer look

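In 4 of the 9 hearts, all labelled male, *Xist* was high and the 4 Y-linked genes were listed at 0. The values were 82.57 and 97.03 FPKM (replicates 1 and 3 of E18.5d) and 58.03 and 69.96 FPKM (replicates 2 and 3 of P7d). P1d has no such heart, so that comparisons with P1d also set hearts with *Xist* against hearts without. For the members, fits with an *Xist* covariate and with the matching hearts alone are given above. The part of sex in the changes was not tested further.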

How the results depend on the processing

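Of 567 alternative log2 changes of the members, 457 kept their sign and their side of the threshold, 83 lost the threshold, 13 gained it and 14 changed sign. Of 126 alternative counts of members 100 stayed within 1.5 times, and of 399 alternative share differences 384 moved by less than the SD of the hearts. The causes were not tested.

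For P7d against E18.5d, the 1 member higher became 0 with no filter, with equal column sums and in the hearts that match their label, and 2 with median of ratios or nuclear protein-coding sums (1 to 2 with a heart left out). The 4 members lower became 0 with no filter, equal column sums, median of ratios, quantile normalization, nuclear protein-coding sums or only the hearts that match their label, 2 without trend and 1 with the replicate block (0 to 4 with a heart left out). The 5 members lower at P1d than at E18.5d became 1 in the hearts that match their label. The 6 members higher at P7d than at P1d became 3 with no filter, 2 with the *Xist* covariate and 0 in the hearts that match their label (3 to 6 with a heart left out), and the 0 lower became 0 to 1 with a heart left out. Replicates share only a number, since same-numbered hearts deviated with correlations of -0.055 to 0.112. The fit to the hearts that match their label called 93 genes higher and 101 lower among all genes at P7d against E18.5d.

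Signs at P7d against E18.5d turned for *Actc1* with median of ratios (0.20) and nuclear protein-coding sums (0.15), for *Actg1* with median of ratios (0.10), quantile normalization (0.16) and nuclear protein-coding sums (0.055), and in the hearts that match their label for *Acta1* (-0.17), *Actb* (-0.073) and *Mrtfb* (-0.029). With a heart left out the range was -0.028 to 0.44 for *Acta1*, -0.063 to 0.037 for *Actc1* and -0.032 to 0.11 for *Actb*. *Srf* was at 0.066, 0.0076 and 0.023 with median of ratios, quantile normalization and nuclear protein-coding sums, *Mrtfa* at 0.081, 0.057 and 0.045 with the same, and *Myocd* at 0.047 and 0.0039 with median of ratios and nuclear protein-coding sums. At P1d against E18.5d *Tpm1* was at -0.13 with equal column sums and -0.39 with quantile normalization, and *Acta2* at -0.17 to 0.0069 with a heart left out.

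Of the share differences from E18.5d to P7d, in points, *Actc1* was at 1.97, *Acta2* at -2.20, *Tpm1* at 2.91 and *Tpm2* at -0.95 in the hearts that match their label, and *Tpm1* at 2.85 and *Tpm3* at -0.58 with medians of the hearts. In the hearts that match their label the differences from E18.5d to P1d moved from 1.69 to 2.85 for *Actc1*, from 0.51 to -0.020 for *Acta2* and from -0.62 to -0.89 for *Tpm2*, and those from P1d to P7d from 0.17 to 0.030 for *Acta1* and from 0.036 to -0.11 for *Tpm3*. Each member rested on at least 1106 fragments in each heart. The near-identical actin sequences, gene-level values of the tropomyosins and 3 hearts per stage limit what can be read from these data.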
